A study of Homo sapiens with 42 samples.

Results

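The chromatin loops of human chromosome 19 were followed through the response of K562 cells to a phorbol ester. They are the 656 loops, of 33914 in the whole table, whose anchors lie on chromosome 19. K562 is an established human leukemia cell line, carried here with a wild-type genotype, and PMA (phorbol 12-myristate 13-acetate, used at 25 nM) drives it towards a megakaryocyte-like state. In situ Hi-C, which ligates and sequences DNA ends that lie close together in the nucleus, was run on 42 samples, 14 each at 0 h (no PMA), 6 h and 72 h. Each time point had 4 biological replicates, summed here to 12 libraries, and the groups differ only in the time in PMA. All results come from 1 cell line, and no expression was measured in these files, so that the differentiated state could not be set against marker genes. Each loop joins 2 anchors of 10 kb and is measured by the contacts counted between them.

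Chromosome 19 is the most gene-dense human chromosome and the home of most KRAB zinc finger genes, which lie in tandem arrays that arose by repeated duplication. Many of their proteins bind transposable elements and recruit the co-repressor TRIM28, which brings in the histone methyltransferase SETDB1 and heterochromatin proteins. Loops are commonly made where cohesin, extruding DNA, is stopped by pairs of CTCF sites, and others join promoters with enhancers.

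Positions are given in GRCh38 (hg38), counted from 1. The zinc finger regions were 4 intervals: cluster 1 at 19.7 to 24.1 Mb, cluster 2 at 36.0 to 38 Mb, cluster 3 at 52.0 to 53.5 Mb and cluster 4 at 56.4 to 58.6 Mb. A loop was called a cluster loop when the middles of both anchors lay in 1 cluster (27 loops), a boundary loop when only 1 did (18 loops), and part of the rest otherwise (611 loops). The label fits the annotation: zinc finger genes made up 157 of the 197 protein-coding genes in the clusters (79.7%) and 108 of 1254 in the rest (8.61%), counted by symbols that begin with ZNF, ZFP, ZSCAN, ZIK, ZIM or ZKSCAN. A gene is placed at an anchor here when either of its ends lies within the 10 kb.

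Promoters are shown for genes at the ends of 4 loops on which the results turn. ZNF544 and SLC27A5 lie at opposite ends of loop31182, the cluster loop that rose at 6 h. MZF1 is an end of loop31184, the loop of cluster 4 with the highest counts, ZNF525 of the longest loop of cluster 3, and ZNF536 of a loop that rose by 72 h in the gene-poor stretch between clusters 1 and 2. The sequences are RefSeq promoters of GRCh38.p14, from 250 bases before to 50 bases after a gene start, read 5′ to 3′ on the gene's strand.
ZNF544 (chr19:58228664-58228963, plus strand): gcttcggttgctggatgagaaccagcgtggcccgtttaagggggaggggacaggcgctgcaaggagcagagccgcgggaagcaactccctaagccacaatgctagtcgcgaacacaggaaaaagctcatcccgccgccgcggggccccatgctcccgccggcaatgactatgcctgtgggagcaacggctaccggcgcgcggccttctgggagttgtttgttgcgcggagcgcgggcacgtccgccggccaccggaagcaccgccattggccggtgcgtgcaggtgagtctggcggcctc
SLC27A5 (chr19:58511943-58512242, minus strand): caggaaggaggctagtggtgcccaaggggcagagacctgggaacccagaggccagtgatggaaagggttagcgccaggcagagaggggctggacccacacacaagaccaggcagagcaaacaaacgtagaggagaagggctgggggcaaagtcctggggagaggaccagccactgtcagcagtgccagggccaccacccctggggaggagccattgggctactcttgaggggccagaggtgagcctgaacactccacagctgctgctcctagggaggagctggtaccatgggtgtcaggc
MZF1 (chr19:58573524-58573823, minus strand): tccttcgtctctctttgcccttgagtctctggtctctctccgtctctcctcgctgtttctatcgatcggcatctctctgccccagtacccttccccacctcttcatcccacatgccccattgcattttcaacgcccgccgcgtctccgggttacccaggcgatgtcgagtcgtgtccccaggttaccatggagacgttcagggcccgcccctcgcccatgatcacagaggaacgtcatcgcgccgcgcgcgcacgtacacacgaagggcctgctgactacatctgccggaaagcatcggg
ZNF525 (chr19:53365455-53365754, plus strand): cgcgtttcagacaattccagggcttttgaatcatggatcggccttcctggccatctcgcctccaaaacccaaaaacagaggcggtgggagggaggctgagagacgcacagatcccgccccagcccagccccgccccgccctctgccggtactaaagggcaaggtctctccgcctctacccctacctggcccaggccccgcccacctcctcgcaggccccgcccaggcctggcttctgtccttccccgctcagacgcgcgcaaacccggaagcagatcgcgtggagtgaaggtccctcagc
ZNF536 (chr19:30227638-30227937, plus strand): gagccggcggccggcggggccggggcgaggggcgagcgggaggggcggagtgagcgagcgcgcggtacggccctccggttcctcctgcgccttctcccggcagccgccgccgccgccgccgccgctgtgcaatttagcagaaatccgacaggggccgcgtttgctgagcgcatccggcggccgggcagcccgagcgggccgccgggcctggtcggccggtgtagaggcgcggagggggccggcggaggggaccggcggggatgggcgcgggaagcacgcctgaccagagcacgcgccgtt

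The GC content of these 300 bases was 78.7% at ZNF536, 67% at ZNF544, 65.7% at ZNF525, 62.7% at SLC27A5 and 60.7% at MZF1. The other ZNF536 promoters in the same anchor had 58.3% and 63.7%. The median was 62.3% over the 22199 protein-coding promoters listed by RefSeq. On chromosome 19 it was 65.7% for the 306 promoters whose gene start lay in a loop anchor and 62.7% for the 1242 others. The 16 promoters in anchors of cluster loops had a median of 63% and the 287 promoters of zinc finger genes one of 60.3%. These values describe the promoters only, and the sequence of the anchors themselves was not used here.

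The libraries held 736929 to 1472197 loop contacts, of which 31601 to 65886 lay on chromosome 19 and 581 to 1102 in cluster loops. Of the 656 loops, 647 had enough counts for a test, among 24132 tested in all. Their median count per library was 55.83, against 22.58 for the 25 tested cluster loops and 29.25 over all tested loops. By counting error alone the exact 95% Poisson interval runs from 42.3 to 72.7 for a count of 56 and from 14.6 to 34.5 for one of 23, so a single cluster loop is measured less closely than a loop elsewhere on the chromosome. The 72 h replicates 3 and 4 did not differ by more than the sampling noise and count as 1 sample in every mean ± SD, so that n = 3 at 72 h and n = 4 at 0 h and 6 h. The fitted tests and the counts of libraries without overlap use them as 2 libraries, and summing them gave 255, 64 and 131 changed loops at 72 h, at 6 h and from 6 h to 72 h in place of 256, 62 and 140. Nothing in the labels says that the replicates came from separate cultures, and the p-values measure the spread between these libraries.

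Loops were sparse in the zinc finger clusters and denser in the rest of the chromosome taken as a whole. The clusters, 10.1 Mb in all, held 2.673 loops per Mb, against 12.598 per Mb in the 48.5 Mb of the rest. Cluster 1 was the emptiest with 8 loops in 4.4 Mb, and clusters 2, 3 and 4 held 5, 4 and 10 loops. Loops of the chromosome were short, with a median of 190 kb against 440 kb over all loops, but those of the clusters had a median of 400 kb and those of the rest 180 kb. How reads that map to several zinc finger genes were treated is not given in the sources used here, and the part of mappability in these densities and in the gaps described next was not tested.

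The longest stretch without an anchor, 3160 kb from chr19:24290001-27450000, lies outside the clusters, between clusters 1 and 2. It is counted in the length of the rest, and only 1 loop was centred at 24 to 26 Mb and 2 at 26 to 28 Mb. The next 5 in length, of 600.0 to 790.0 kb, were all in clusters 1 and 2. The longest of them, chr19:37110001-37900000, takes up much of cluster 2. No loop joined 1 cluster to another, and none spanned a whole cluster. Of the 44 anchors of cluster loops 12 held an end of a zinc finger gene (27.3%), and of the 856 anchors of the rest 2.45% did. Anchors with an end of any protein-coding gene were about as frequent in both, at 38.6% and 43.1%. An anchor was shared by several loops in 20.5% of cases in the clusters and 32.2% in the rest.

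By 72 h the loops of chromosome 19 had fallen more often than they had risen. Against 0 h, 229 of 647 tested loops fell (35.4%) and 27 rose (4.17%) at an adjusted p under 0.05 (edgeR's quasi-likelihood test, Benjamini-Hochberg over all 24132 loops), where over all loops 16.9% fell and 16.7% rose. The median log2 fold change was -0.22 on the chromosome and 0.01 over all tested loops. In 171 loops (26.4%) all 4 libraries of 72 h lay below all 4 of 0 h, against 14.1% of all loops, and in 24 they lay above, against 14.2%. These 256 changed loops (39.6%, against 33.6% of all loops) came to 165 with DESeq2, of which 6.06% rose, compared with 10.5% of those that edgeR called.

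**Figure D1:**
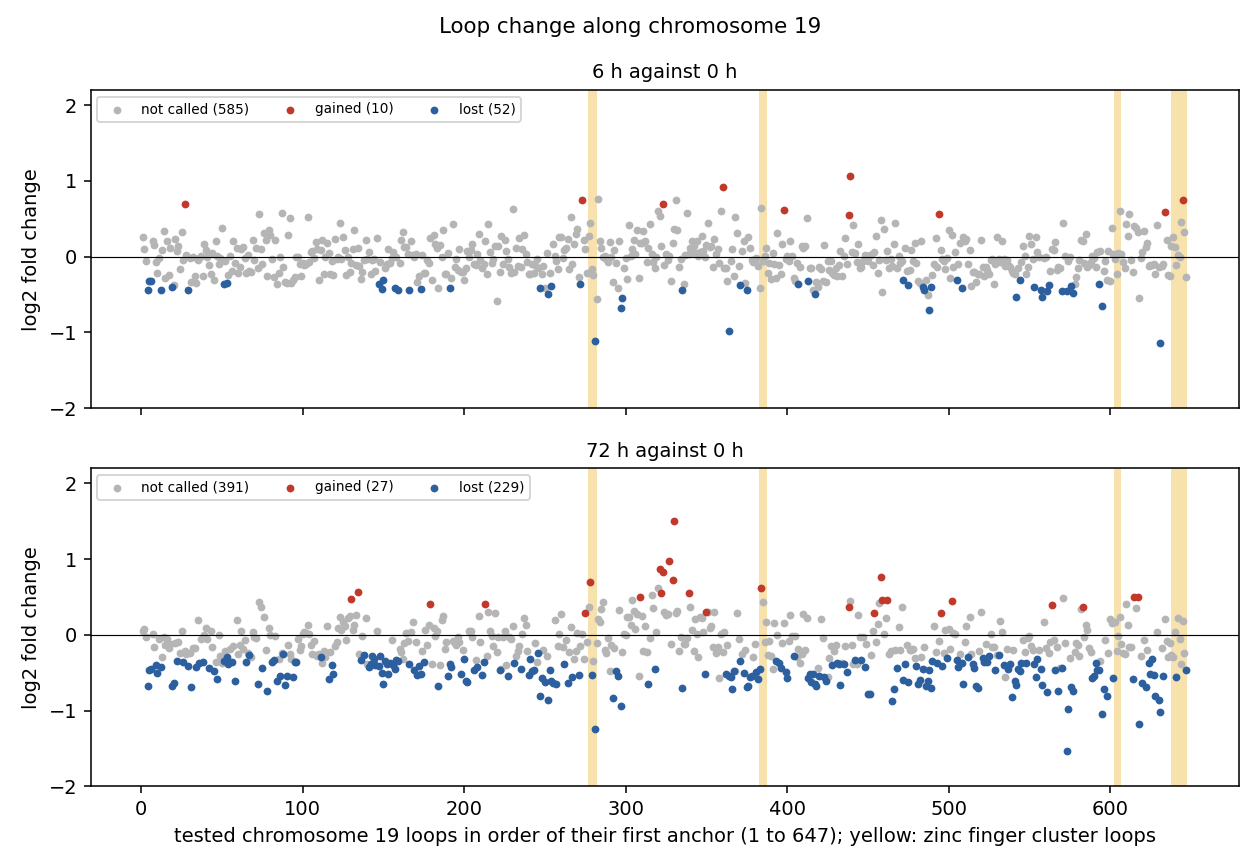
Log2 fold change of the 647 tested loops of chromosome 19 in the order of their first anchor, at 6 h (top) and 72 h (bottom) against 0 h, with loops that passed the threshold in red (gained) and blue (lost) and the zinc finger cluster loops shaded yellow. At 6 h 52 loops were lost and 10 gained; at 72 h 229 were lost and 27 gained, with a run of gained loops between clusters 1 and 2.

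The chromosome's share of all loop contacts fell as well. At 0 h replicates 1 to 4 gave 4.475%, 4.118%, 4.554% and 4.421%, a mean of 4.392% ± 0.19 (SD, n = 4). At 6 h they gave 4.151%, 3.986%, 4.288% and 4.401% (mean 4.207% ± 0.18, n = 4), and at 72 h 3.762%, 3.704%, 3.873% and 3.908% (mean 3.785% ± 0.096, n = 3). All 72 h libraries lay below every library of 0 h and 6 h, while 0 h and 6 h overlapped. The same order was seen among loops of 100 to 400 kb alone, with means of 3.85%, 3.805% and 3.373%. Chromosomes 17 and 22, also rich in genes, fell from 4.629% ± 0.079 to 4.138% ± 0.053 and from 2.477% ± 0.013 to 2.321% ± 0.038 between 0 h and 72 h.

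**Figure D2:**
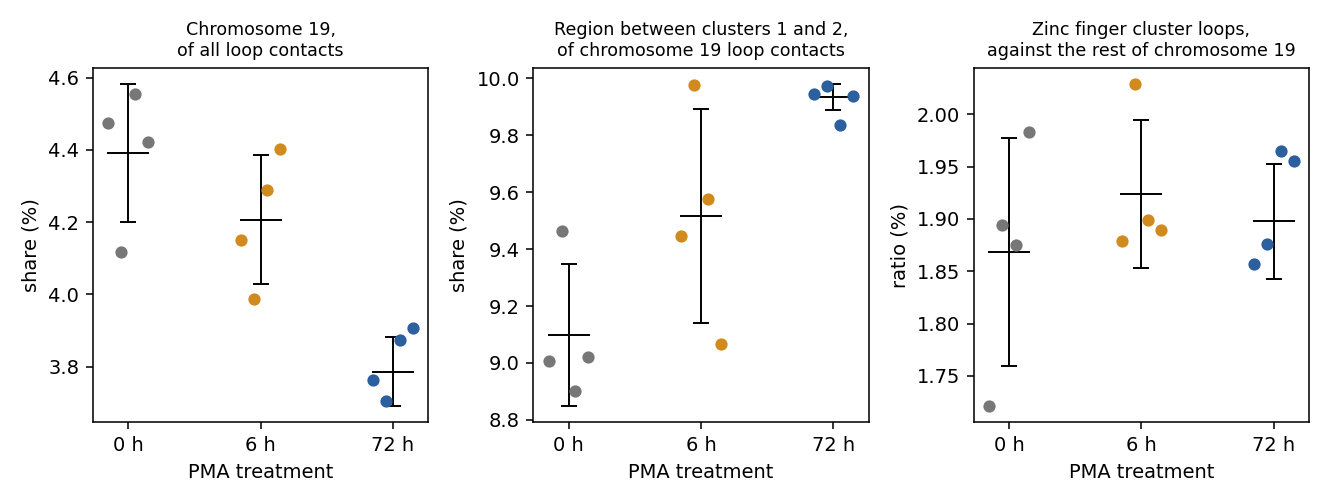
Share of loop contacts per library at 0 h, 6 h and 72 h of PMA: chromosome 19 among all chromosomes (left, %), the region between clusters 1 and 2 among chromosome 19 (middle, %), and contacts of cluster loops as a percentage of those of the rest (right). Points are libraries, bars the mean ± SD with 72 h replicates 3 and 4 averaged; the axes do not start at 0. The left and middle panels show 72 h apart from 0 h, and the right panel shows overlapping times.

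The fall was seen in loops of every length class up to 800 kb. Among loops of up to 100 kb 44.4% of 187 fell on chromosome 19, against 36.3% of all loops of that length, and at 100 to 200 kb 43.9% of 164 against 24.9%. At 200 to 400 kb 32.6% of 187 fell against 15.7%, and at 400 to 800 kb 13.4% of 97 against 7.26%. Of the 12 tested loops over 800 kb 2 rose and 0 fell (also 0 with DESeq2 and 0 at an unadjusted p under 0.05 by edgeR). The length of a loop and its change moved together, and a correction of the counts for length left 195 lost and 36 gained loops.

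Set beside loops in surroundings of like gene density, those of chromosome 19 stood closer to the other chromosomes. In surroundings of 20 to 39 protein-coding genes per Mb, where 456 of the tested loops lie, 38.6% fell on chromosome 19 and 36.9% on the other chromosomes, with medians of -0.25 and -0.24. With 40 or more genes per Mb it was 46.9% of 81 loops against 38.7%. With 0 to 9 genes per Mb 13.6% of 66 loops fell and 13.6% rose, against 10.6% and 22% elsewhere, with medians of 0.12 and 0.13. At 10 to 19 genes per Mb the order was turned, with 13.6% of 44 loops fallen against 23.9%. The part of gene density in the chromosome's fall was not tested.

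**Figure D3:**
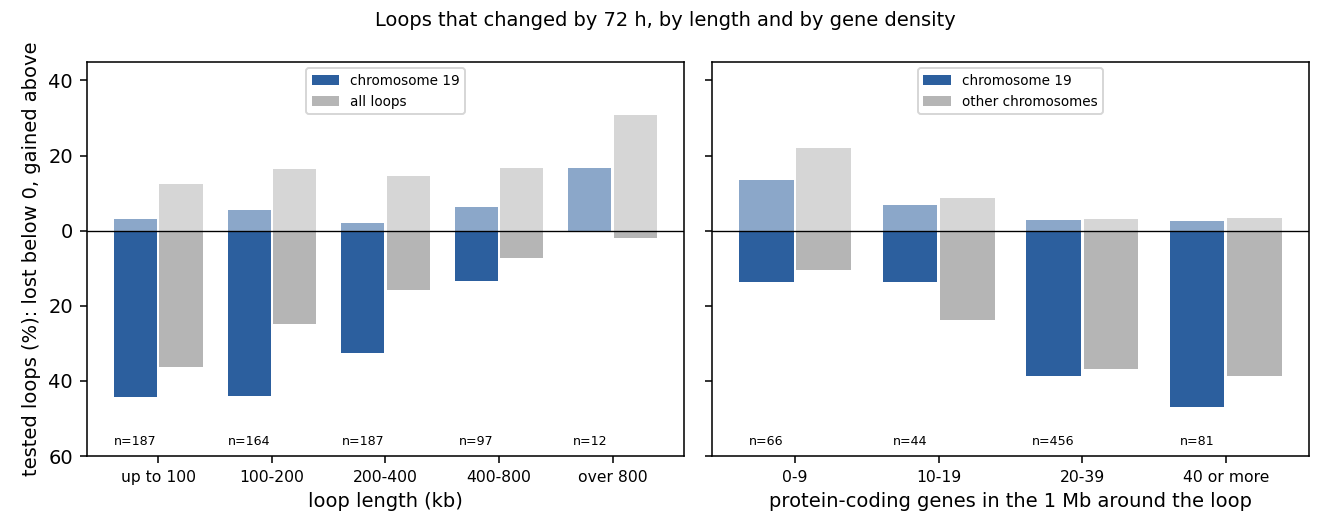
Percentage of tested loops lost (below 0) and gained (above 0) by 72 h, by loop length in kb (left, chromosome 19 beside all loops) and by protein-coding genes in the 1 Mb around the loop (right, chromosome 19 beside the other chromosomes); n is the number of tested chromosome 19 loops. Chromosome 19 lost a larger share than all loops in each length class up to 800 kb, and at 20 to 39 genes it lost 38.6% against 36.9%.

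The fall was spread along both arms but not evenly. Before cluster 1, 100 of 273 loops fell and 5 rose (median -0.22), and between clusters 2 and 3, 90 of 208 fell and 9 rose (median -0.27). In windows of 2 Mb the largest share lost was 18 of 27 at 10 to 12 Mb (median -0.35), followed by 13 of 23 at 44 to 46 Mb and 9 of 17 at 54 to 56 Mb. At 8 to 10 Mb only 5 of 27 fell. Between clusters 3 and 4, 11 of 27 fell and 2 rose.

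In the stretch between clusters 1 and 2 the median was near 0. There 19 of 98 tested loops fell and 9 rose, with a median of -0.03. Its share of the chromosome's loop contacts was 9.006%, 9.462%, 8.9% and 9.02% at 0 h, 9.445%, 9.977%, 9.576% and 9.067% at 6 h, and 9.946%, 9.974%, 9.835% and 9.936% at 72 h. Every 72 h library lay above every 0 h library, while 6 h spanned the range between. Of the 9 rises 6 lay in the window of 30 to 32 Mb, where 6 of 16 loops rose and 0 fell (0 with DESeq2, and 0 at an unadjusted p under 0.05 by edgeR), with a median of 0.45. These 6 loops have 1 to 5 protein-coding genes in the 1 Mb around them and lie around ZNF536 and TSHZ3, zinc finger transcription factors outside the clusters that are best known from the nervous system. On the other chromosomes 22% of tested loops with 0 to 9 genes per Mb rose and 10.6% fell. Of all tested loops over 800 kb, a length that loop30862 and loop30864 exceed, 30.9% rose and 2.04% fell. The window was singled out after its values were seen.

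The largest rise on the chromosome was loop30866, of 180 kb, from chr19:31360001-31370000 to chr19:31540001-31550000, 9.1 kb beyond TSHZ3 at the near anchor. Its normalized counts (contacts per 1000000 in tested loops) were 14.5, 10.4, 16.3 and 20.5 at 0 h, 20.6, 21.5, 25.5 and 13.3 at 6 h, and 46.9, 34.1, 48.9 and 55.3 at 72 h. The 72 h libraries lay above all the others, and 0 h and 6 h overlapped. The log2 fold change at 72 h was 1.505 ± 0.188 (SE, adjusted edgeR p = 3.16e-11), and 1.13 ± 0.184 of it came after 6 h (adjusted edgeR p = 1.07e-06).

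Loop30862 spans TSHZ3 over 1440 kb, from chr19:30780001-30790000 to chr19:32220001-32230000. It gave 7.97, 17.1, 10.0 and 10.2 at 0 h, 13.7, 8.41, 8.49 and 14.5 at 6 h, and 24.8, 27.1, 18.7 and 25.0 at 72 h. Its 0 h and 6 h libraries also overlapped, and all 72 h libraries lay above them, with a log2 fold change at 72 h of 0.98 ± 0.228 (adjusted edgeR p = 0.000313). With the correction for loop length it was 0.57 (adjusted edgeR p = 0.0475).

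Loop30857 lies within ZNF536, with the gene's start and the promoter shown above in its first anchor and 420 kb between the anchors. It gave 15.2, 19.9, 17.6 and 12.5 at 0 h, 25.5, 32.7, 25.5 and 25.3 at 6 h, and 30.1, 32.1, 29.1 and 30.3 at 72 h. In contrast to the TSHZ3 loops, it was higher in every 6 h library than in any 0 h library. It rose by 0.69 ± 0.209 at 6 h (adjusted edgeR p = 0.0258) and by 0.82 ± 0.198 at 72 h (adjusted edgeR p = 0.000483). The 6 h call was lost without 0 h replicate 1, 0 h replicate 4 or 6 h replicate 2 (adjusted p up to 0.146), and the 72 h call was not lost on leaving out any library. With the length correction and in either pair of replicates alone the 6 h call was lost too (adjusted edgeR p up to 0.326).

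The other risen loops of this window passed the threshold with weaker support. Loop30855, from chr19:29880001-29890000 into the body of ZNF536, spans URI1 and rose by 0.86 ± 0.277, from 6.65 ± 1.7 to 14.6 ± 1.7 normalized counts (adjusted edgeR p = 0.00976), a call lost with DESeq2 and in either pair of replicates (adjusted edgeR p = 0.0853 and 0.118). Loop30856 rose by 0.56 ± 0.178, a call lost with DESeq2 and without 72 h replicate 4 (adjusted edgeR p = 0.118). Loop30864, which shares its far anchor with loop30862, rose by 0.72 ± 0.282, a call lost with DESeq2, with the length correction (adjusted edgeR p = 0.29) and without any of 6 libraries (adjusted edgeR p up to 0.168).

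Outside that stretch the largest rise was loop30995, with an end of PSG7, a pregnancy-specific glycoprotein gene, at 1 anchor and PSG11 and PSG2 inside. It went from 21.0, 23.7, 27.6 and 21.6 at 0 h to 43.3, 37.1, 46.8 and 35.7 at 72 h, with 35.3, 39.3, 31.1 and 25.3 at 6 h. The 0 h and 72 h libraries did not overlap, and 6 h reached into both. The log2 fold change at 72 h was 0.76 ± 0.175 (adjusted edgeR p = 0.000252).

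The largest fall was loop31110, of 250 kb, from the body of LRRC4B to SMIM47 at chr19:50530001-50790000, with SYT3, SHANK1, CLEC11A and GPR32 among the genes inside. It gave 63.7, 70.3, 59.0 and 78.5 at 0 h, 62.7, 44.9, 46.7 and 39.8 at 6 h, and 9.73, 30.1, 23.9 and 25.9 at 72 h. All 72 h libraries lay below all the others, and replicate 1 was the lowest of them. The log2 fold change was -1.53 ± 0.165 at 72 h (adjusted edgeR p = 1.75e-14). At 6 h it was -0.45 ± 0.145 (adjusted edgeR p = 0.0402), a call also lost with DESeq2, the length correction or total count scaling, and without any of 6 libraries.

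Loop31132, another of the largest falls, runs from 2.4 kb beyond SIGLEC10 to FPR3, and holds SIGLEC8, SIGLEC5, FPR1 and FPR2, genes of sialic acid-binding lectins and formyl peptide receptors, which sense sugars and bacterial peptides on myeloid cells. It gave 57.2, 45.6, 61.5 and 53.4 at 0 h, 36.3, 28, 38.2 and 33.8 at 6 h, and 20.3, 21.1, 36.4 and 24.1 at 72 h. The 0 h libraries lay above all the others, and it fell by 0.66 at 6 h (SE 0.16, adjusted edgeR p = 0.00419) and by 1.05 at 72 h (SE 0.164, adjusted edgeR p = 7.57e-08). In either pair of replicates alone the 6 h call was lost (adjusted edgeR p up to 0.147).

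Loop31155 runs from 2.8 kb before LAIR2 to KIR3DL1 and KIR2DS4, with LILRA2, LILRB1 and KIR2DL4 inside, genes of leukocyte and killer cell immunoglobulin-like receptors. It gave 23.9, 25.6, 17.6 and 18.2 at 0 h, 14.7, 15.9, 9.91 and 15.7 at 6 h, and 12.4, 5.02, 10.4 and 6.25 at 72 h. The 72 h libraries lay below all those of 0 h, with a log2 fold change of -1.18 ± 0.243 (adjusted edgeR p = 4.57e-05). In replicates 3 and 4 alone the call was lost (adjusted edgeR p = 0.0577). Reads from the near-identical KIR genes may not be told apart, and their part in this count was not tested.

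Next to the start of cluster 4, loop31168 joins a site 7.4 kb from the nearest gene with GALP, the gene of a galanin-like peptide, over 100 kb that hold ZNF787 and ZNF444. It gave 106.0, 95.9, 115.0 and 115.0 at 0 h, 51.0, 40.2, 45.3 and 55.5 at 6 h, and 47.8, 47.2, 62.4 and 51.8 at 72 h. The drop was complete by 6 h, with no overlap, and it held. It fell by 1.14 at 6 h (SE 0.131, adjusted edgeR p = 2.56e-11), the smallest p of all 24132 loops at that time, and by 1.02 at 72 h (SE 0.124, adjusted edgeR p = 1.11e-11).

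Inside the zinc finger clusters 7 loops passed the threshold at 72 h. Of the 25 tested cluster loops 5 fell (20%) and 2 rose (8.0%) by 72 h in edgeR, with a median of -0.10, against 220 fallen (36.3%) and 25 risen of 606 in the rest, with a median of -0.22. The difference between these shares was not tested. DESeq2 left 2 of these 7 calls, the falls of loop30811 and loop31184, and no rise. The cluster median was 0.01 without 72 h replicate 2, so it has no settled sign. With the correction for loop length it was -0.17, beside -0.18 for all tested loops of the chromosome. Of the 16 tested boundary loops 4 fell and 0 rose by edgeR (0 at an unadjusted p under 0.05, and 0 with DESeq2), with a median of -0.26. By cluster, 2 of 6 loops fell and 1 rose in cluster 1, 1 of 5 fell and 1 rose in cluster 2, 0 of 4 passed the threshold in cluster 3, and 2 of 10 fell in cluster 4.

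Set against the rest of the chromosome, the pooled contacts of cluster loops overlapped between the times, while the shares of some single clusters did not. As a percentage of the contacts of the rest they were 1.721, 1.894, 1.875 and 1.983 at 0 h, 1.879, 2.029, 1.899 and 1.889 at 6 h, and 1.857, 1.876, 1.965 and 1.955 at 72 h. The 3 times had means of 1.868 ± 0.11, 1.924 ± 0.07 and 1.898 ± 0.055. Cluster 1 took 0.4386% to 0.5744% of the chromosome's loop contacts at 0 h, 0.353% to 0.4263% at 6 h and 0.4299% to 0.5002% at 72 h, so that 6 h lay below both other times. Cluster 4 took 0.7422% to 0.8202% at 0 h, 0.8552% to 1.024% at 6 h and 0.7337% to 0.8204% at 72 h, with 6 h above both. Cluster 2 stood at 0.3023% to 0.3613% at 0 h and above that, at 0.3644% to 0.4389%, at 72 h, with 0.3133% to 0.419% at 6 h. Cluster 3 overlapped at all times. These shares were compared after they were seen, and none of the differences was tested. The 6 h shares include loop30811, which fell in cluster 1, and loop31182, which rose in cluster 4. They were not computed without these loops. A zinc finger gene end at an anchor, within or outside the clusters, went with 10 of 41 loops lost and 2 gained (median -0.09). Ends of other genes went with 148 of 371 lost and 11 gained (median -0.26), and 71 of 235 loops without a gene end were lost and 14 gained (median -0.16).

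**Figure D4:**
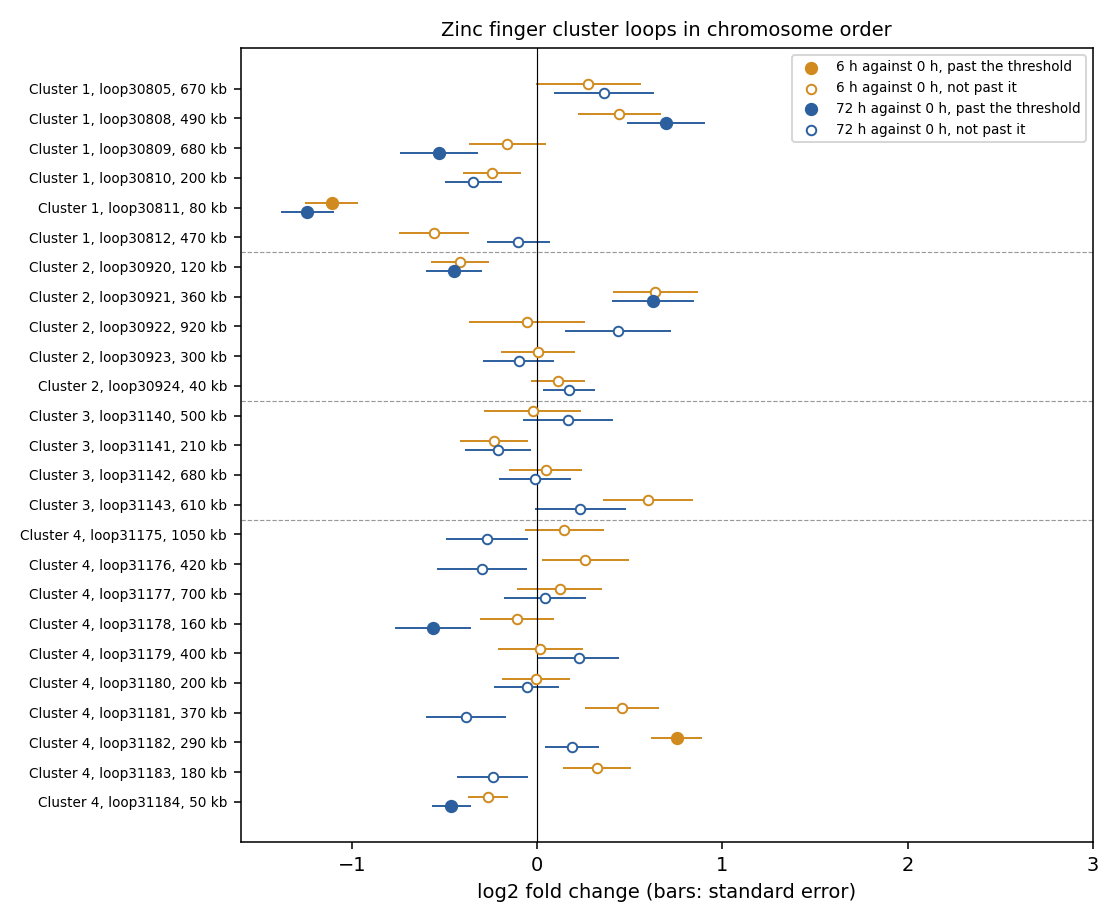
Log2 fold change of the 25 tested zinc finger cluster loops at 6 h (orange) and 72 h (blue) against 0 h, in chromosome order from cluster 1 (top) to cluster 4 (bottom), with standard errors; filled points passed the threshold. At 6 h loop30811 fell and loop31182 rose, and at 72 h loop30809, loop30811, loop30920, loop31178 and loop31184 fell and loop30808 and loop30921 rose.

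Cluster 1 held the strongest change of any cluster loop. Loop30811, of 80 kb, joins chr19:21610001-21620000 to chr19:21690001-21700000, a stretch without protein-coding genes between ZNF429 and ZNF100. Its normalized counts were 81.8, 62.7, 108.0 and 108.0 at 0 h, 37.3, 33.6, 39.6 and 50.7 at 6 h, and 34.5, 37.1, 38.5 and 34.8 at 72 h. Each 0 h library lay above all libraries of 6 h and 72 h, which overlapped with each other. The log2 fold change was -1.11 ± 0.144 at 6 h (adjusted edgeR p = 3.18e-09) and -1.24 ± 0.141 at 72 h (adjusted edgeR p = 3.78e-13), and both calls held on leaving out any library.

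Loop30808 reaches the same anchor from 490 kb away and spans ZNF708, ZNF738, ZNF493 and ZNF429. It gave 11.6, 11.4, 16.3 and 28.4 at 0 h, 15.7, 27.1, 21.2 and 26.5 at 6 h, and 23.9, 32.1, 26 and 27.7 at 72 h. Replicate 4 of 0 h lay as high as the 72 h libraries, so the times overlapped. It rose by 0.70 ± 0.209 at 72 h (adjusted edgeR p = 0.00556), a call lost without 0 h replicate 1 (adjusted edgeR p = 0.0815), with DESeq2 (adjusted p = 0.0546) and in replicates 3 and 4 alone (adjusted edgeR p = 0.616). Loop30810, the third at this anchor and 200 kb long, had a log2 fold change of -0.34 ± 0.154 (adjusted edgeR p = 0.0715).

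Loop30809 starts at the anchor where loop30808 starts and runs on to a site 27.9 kb from ZNF43, over ZNF100 and ZNF43. It went from 24.6 ± 3.7 at 0 h to 14.7 ± 6.9 at 72 h (log2 fold change -0.53 ± 0.211, adjusted edgeR p = 0.0402), a call lost without any of 5 libraries. The other tested loops of cluster 1 were loop30805, from ZNF737, and loop30812, from ZNF729 to ZNF99, with log2 fold changes of 0.36 ± 0.271 and -0.10 ± 0.169. At 6 h loop30812 had been lower in every library than at 0 h, at 23.5 ± 2.4 against 34.9 ± 3.4 (log2 fold change -0.56 ± 0.188, adjusted edgeR p = 0.0525). Loop30806 and loop30807, of 1310 and 1350 kb, were too thinly covered for a test, with 0 to 14 contacts per library.

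**Figure D5:**
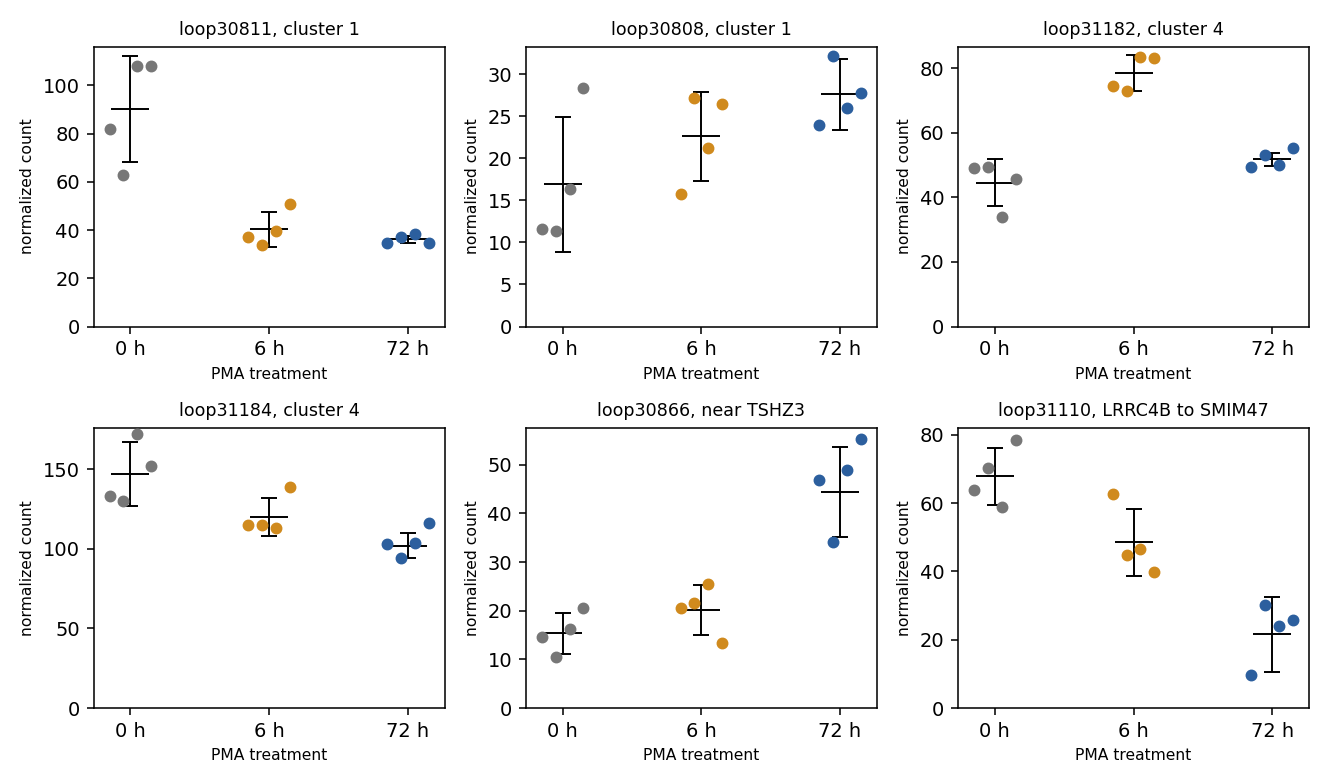
Normalized count (contacts per 1000000 in tested loops) per library at 0 h, 6 h and 72 h of PMA for 6 loops of chromosome 19, with the mean ± SD (72 h replicates 3 and 4 averaged). Loop30811 dropped by 6 h and loop31182 was highest at 6 h, while loop30866 rose and loop31110 fell most between 6 h and 72 h.

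In cluster 2 loop30920 joins the paired starts of THAP8, a gene of a zinc-dependent DNA-binding protein, and WDR62, a spindle pole gene, to a site 2.1 kb before ZNF565. It gave 47.1, 51.3, 62.7 and 51.2 at 0 h, 45.1, 32.7, 39.6 and 37.4 at 6 h, and 37.2, 32.1, 39.5 and 42.0 at 72 h. All 72 h libraries lay below those of 0 h, with a log2 fold change of -0.45 ± 0.151 (adjusted edgeR p = 0.0142). The call was lost without 0 h replicate 3 or 72 h replicate 2 (adjusted p up to 0.0558).

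Loop30921 of cluster 2 ends beside CAPNS1, a calpain subunit gene, and ZNF566. It gave 15.9, 7.59, 15.1 and 15.9 at 0 h, 26.5, 24.3, 18.4 and 18.1 at 6 h, and 24.8, 13.1, 28.1 and 22.3 at 72 h. The 6 h libraries all lay above 0 h, and 72 h replicate 2 fell back among them. The rise of 0.63 ± 0.223 at 72 h (adjusted edgeR p = 0.0211) was lost without 0 h replicate 2, 72 h replicate 1 or 72 h replicate 3 (adjusted p up to 0.151). The shortest and strongest loop there was loop30924, of 40 kb. It runs from the bodies of ZNF565 and ZNF146 to a site 14.1 kb beyond ZNF565. The loop had a log2 fold change of 0.17 ± 0.14.

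In cluster 3 no loop passed the threshold of edgeR at 72 h, and 0 of 4 did at an unadjusted p under 0.05 or with DESeq2. Its 4 loops had log2 fold changes of -0.21 ± 0.178 to 0.23 ± 0.246 at 72 h. Its longest loop, loop31142, runs 680 kb from ZNF83 to ZNF525, whose promoter is shown above, and stood at 28.3 ± 9.2, 29.8 ± 14 and 26.9 ± 2.0 normalized counts.

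Cluster 4, at the end of the long arm, held loop31182, the cluster loop that rose past the threshold at 6 h. It joins chr19:58220001-58230000, with the start of ZNF544, to chr19:58510001-58520000, with SLC27A5, a bile acid ligase gene, and an end of ZBTB45. It spans 13 protein-coding genes, 9 of them zinc finger genes by symbol. Its normalized counts were 49.2, 49.4, 33.9 and 45.5 at 0 h, 74.5, 72.9, 83.5 and 83.2 at 6 h, and 49.5, 53.2, 49.9 and 55.3 at 72 h. All 6 h libraries stood far above both other times. It rose by 0.75 ± 0.138 at 6 h (adjusted edgeR p = 6.09e-05) and fell by 0.56 afterwards (SE 0.134, adjusted edgeR p = 0.000935), and both calls held on leaving out any library. In replicates 1 and 2 alone both calls were lost (adjusted edgeR p = 0.0754 and 0.0548).

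Loop31181 starts at ZNF274, the gene of a protein known to bring SETDB1 to zinc finger genes, and ends 6.4 kb past MZF1. It stood at 20.4 ± 5.4, 29.5 ± 4.3 and 16.7 ± 3.5 normalized counts at 0 h, 6 h and 72 h. Its rise did not pass the threshold (0.46 ± 0.199, adjusted edgeR p = 0.159), and it fell by 0.84 from 6 h to 72 h (SE 0.209, adjusted edgeR p = 0.00161). Loop31183, from ZNF584 to the same far anchor, stood at 26 ± 3.9, 33.5 ± 3.6 and 21.4 ± 4.8, with a fall of 0.56 after 6 h (SE 0.189, adjusted edgeR p = 0.0224) that was lost without 6 h replicate 2 or 72 h replicate 1 (adjusted p up to 0.123). Loop31180, from ZNF274 to ZNF584 and ZNF324B, had a log2 fold change of -0.01 ± 0.183 at 6 h and one of -0.06 ± 0.175 at 72 h.

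Loop31184, of 50 kb, ends at MZF1, a myeloid zinc finger gene, and holds TRIM28, the co-repressor of KRAB zinc finger proteins, together with CHMP2A and UBE2M. It was the loop with the highest count of cluster 4, with 133.0, 130, 172.0 and 152.0 at 0 h, 115.0, 115.0, 113.0 and 139.0 at 6 h, and 103.0, 94.4, 104.0 and 116.0 at 72 h. The 72 h libraries lay below those of 0 h, and 6 h overlapped with both. It fell by 0.46 at 72 h (SE 0.106, adjusted edgeR p = 0.000247). Loop31178, from ZNF776 to ZNF814 and ZNF417, fell by 0.56 (SE 0.206, adjusted edgeR p = 0.0253), a call lost without any of 4 libraries. The remaining cluster 4 loops, among them the longest, loop31175 of 1050 kb with an end at ZNF329, did not pass the threshold at 72 h.

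At 6 h the chromosome had changed less. Of the 647 tested loops 52 fell (8.04%) and 10 rose (1.55%) by edgeR, where over all loops 4.07% fell and 2.34% rose, and the median was -0.04 against 0.01. With scaling to total counts the medians were 0.00 and 0.05, so the chromosome stood below all loops by the same amount, and 30.9% of the changed loops rose in place of 16.1%. With the correction for loop length that share was 34.3%. These 62 changed loops (9.58%, against 6.41% of all loops) came to 28 with DESeq2, which gave no adjusted p for 111 of the 647 loops, and to 32 without 0 h replicate 1 and 38 without 6 h replicate 2. Of the cluster loops 1 rose and 1 fell at 6 h, loop31182 and loop30811.

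Among the largest early changes outside the clusters, loop30901, from 22.4 kb beyond ZNF599 to GRAMD1A, a gene of a cholesterol carrier, gave 36.9, 55.1, 67.7 and 67.1 at 0 h, 27.5, 29.0, 19.8 and 27.7 at 6 h, and 37.2, 39.2, 35.4 and 35.7 at 72 h. Its 6 h libraries were the lowest, and it fell by 0.99 at 6 h (SE 0.17, adjusted edgeR p = 1.86e-05) and by 0.54 at 72 h (SE 0.153, adjusted edgeR p = 0.00336). Both calls were lost in replicates 1 and 2 alone (adjusted edgeR p = 0.104 and 0.442), and 0 h replicate 1 lay among the 72 h libraries. Loop30976, over the cytochrome P450 genes CYP2B6, CYP2A13 and CYP2F1 and the receptor kinase gene AXL, gave 8.69, 11.4, 13.8 and 14.8 at 0 h, 31.4, 21.5, 36.8 and 19.3 at 6 h, and 17.7, 19.1, 14.6 and 15.2 at 72 h. All its 6 h libraries lay above the others, and it rose by 1.07 ± 0.228 (adjusted edgeR p = 0.000741). This call was lost in replicates 3 and 4 alone (adjusted edgeR p = 0.205).

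At the border of cluster 1, loop30801 runs from the start of CILP2 and the end of YJEFN3 to a site 16.9 kb past ZNF14. It gave 18.1, 10.4, 12.5 and 20.5 at 0 h, 30.4, 26.2, 31.1 and 22.9 at 6 h, and 13.3, 14.1, 19.8 and 16.1 at 72 h. Like loop31182 it was higher in all 6 h libraries than in the others. It rose by 0.75 ± 0.214 (adjusted edgeR p = 0.0168), a call lost without 0 h replicate 2, 0 h replicate 3 or 6 h replicate 1.

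From 6 h to 72 h, 132 loops fell (20.4%) and 8 rose (1.24%) by edgeR, where over all loops 9.81% fell and 10.7% rose, with a median of -0.17 against 0.00. Of the cluster loops 3 fell, loop31181, loop31182 and loop31183, and 0 rose by edgeR (1 at an unadjusted p under 0.05, loop30812, and 0 with DESeq2). DESeq2 called 55 changed loops in place of 140 (21.6%, against 20.5% of all loops). The largest fall after 6 h was loop30897, from chr19:34030001-34040000 to WTIP, over GPI, UBA2 and LSM14A. It gave 13.8, 8.54, 18.8 and 14.8 at 0 h, 27.5, 35.5, 29.7 and 15.7 at 6 h, and 9.73, 12, 15.6 and 8.93 at 72 h. Its 6 h libraries stood above all of 0 h except replicate 4, and it fell by 1.14 from there (SE 0.228, adjusted edgeR p = 7.85e-05).

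Loops at genes of named groups were counted with the same calls. Of 32 blood cell genes of the chromosome 16 had an end at a tested loop, and of these 18 loops 8 fell and 0 rose at 72 h by edgeR (0 rose at an unadjusted p under 0.05, and 0 with DESeq2), with a median of -0.30. Of all tested loops of the chromosome 35.4% fell, and of those with 20 to 39 genes per Mb 38.6%, so the list's share is near its background. The strongest was loop30954, at GMFG, a cytoskeletal regulator gene of blood cells, with 166.0 ± 15, 119.0 ± 20 and 107.0 ± 4.9 normalized counts at the 3 times. It fell by 0.65 at 72 h (SE 0.104, adjusted edgeR p = 1.79e-07). Loop30701, with ends of LYL1 and NFIX in its anchors, genes of transcription factors of blood progenitors and other cells, fell by 0.52 (SE 0.0978, adjusted edgeR p = 8.09e-06). Loop30700, at KLF1, the erythroid master regulator, with CALR and DNASE2, fell by 0.41 (SE 0.107, adjusted edgeR p = 0.00155), and loop30687 at EPOR, the erythropoietin receptor gene, by 0.34 (SE 0.11, adjusted edgeR p = 0.00993). The call for loop30687 was lost with the length correction (adjusted edgeR p = 0.117) and in replicates 1 and 2 alone (adjusted edgeR p = 0.171). Loop30883 at CEBPA, a granulocyte regulator gene, had a log2 fold change of 0.22 ± 0.124 (adjusted edgeR p = 0.166).

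Immediate early, AP-1 and NF-kB related genes gave a like count. Of 18 genes 9 had an end at 10 tested loops, of which 4 fell and 0 rose by edgeR at 72 h (0 rose at an unadjusted p under 0.05, and 0 with DESeq2), with a median of -0.30, again near the 35.4% that fell on the chromosome. Loop30780 at JUND, an AP-1 subunit gene, went from 127.0 ± 20 over 90.1 ± 11 to 66.8 ± 8.2 and fell by 0.86 at 72 h (SE 0.117, adjusted edgeR p = 1.12e-09). Loop31022 at FOSB fell by 0.44 at 6 h (SE 0.107, adjusted edgeR p = 0.00386) and stood 0.16 below 0 h at 72 h (log2 fold change -0.16 ± 0.101, adjusted edgeR p = 0.209). The medians of both lists stand beside -0.25 and -0.29 for chromosome 19 loops with 20 to 39 and with 40 or more genes per Mb, and the lists were chosen with earlier results known.

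Partners of KRAB zinc finger proteins and heterochromatin factors were looked up on all chromosomes. Of 18 genes 6 had an end at 8 tested loops, of which 2 rose and 1 fell by 72 h (16.7% and 16.9% over all loops), with a median of 0.05. Loop16898 at TRIM24 on chromosome 7 rose by 0.80 ± 0.183 (adjusted edgeR p = 0.000235), and loop32464 at MORC2 on chromosome 22 fell by 0.59 (SE 0.2, adjusted edgeR p = 0.015). The single such loop on chromosome 19, loop30590 at CHAF1A, a chromatin assembly factor gene, gave 51.9 ± 2.6, 56.4 ± 8.9 and 53.5 ± 4.6 and had a log2 fold change of 0.05 ± 0.141 at 72 h. TRIM28 has no end at an anchor of a tested loop.

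The authors' deposited table classes fewer loops of the chromosome as changed. It lists 6 gained, 28 lost and 622 static loops on chromosome 19 (0.915% and 4.27% gained and lost), against 2.95% gained and 1.48% lost over all loops of the authors' deposited table. Each chromosome 19 loop listed there as lost had a deposited log2 fold change of -0.5859 or below at 6 h or 72 h. Each one listed as gained had 0.6895 or above. The edgeR calls used no fold cutoff, so the 2 sets of counts are not like for like. Whether the deposited classes rest on a fold cutoff was not tested. Among the cluster loops the authors' deposited table lists loop31182 as gained and loop30811 as lost, and the other 25 as static.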

How the data were processed

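Raw contact counts per loop and technical replicate, in 30 columns that were all used, were taken from the authors' deposited table, named per the file headers. It also holds the authors' log2 fold changes, adjusted p-value and class, with no account of how they were computed. Juicer 1.5.6, DESeq2 and hg38 are named in the submitters' processing notes, while the loop caller is not given in the sources used here. Counts hold the local background of a pixel as well as the loop.

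Technical replicates and sequencing runs were summed to 12 libraries. Counts of all loops that passed filterByExpr (minimum count 10, minimum total 15) went into edgeR 4.0.16 under R 4.3.3 (quasi-likelihood test with TMM scaling and no covariate, Benjamini-Hochberg adjustment, threshold 0.05). A prior count of 2 enters each fold change, and dividing it by the root of F gave the SE. Gained and lost mean risen and fallen past the threshold. Normalized counts are contacts per 1000000 in tested loops after TMM. A chi-square test over tested loops found the 72 h replicates 3 and 4 not different (1.003 per degree of freedom, p = 0.367), and every other pair different. By the same test replicates 3 and 4 were also the closest pair at 0 h (1.018, p = 0.0253) and at 6 h (1.023, p = 0.00621). The remaining pairs gave 1.056 to 1.272.

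Named loops were the 5 largest rises and falls at 72 h without overlap of libraries, 3 of each among cluster loops and at 6 h, 2 of each from 6 h to 72 h, the highest and longest loop of each cluster, and loops at listed genes. Further loops named at the same anchors, in the same window or turning back after 6 h, and the other changed cluster loops, were chosen after their values were seen. The members and lists were chosen with earlier results of these data known. Genes come from RefSeq (GRCh38.p14); a protein-coding gene ended in 16.34% of all anchors, against 12.2% and 12.53% with anchors shifted by 100 kb to either side. As alternatives, DESeq2 1.42.0, RLE and total count scaling, no filter, the replicate number as a block, a batch term for replicates 1 and 2 against 3 and 4, each of these pairs of replicates alone, a length correction (loess, span 0.3), 72 h replicates 3 and 4 summed and leaving out each library were run.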

Additional observations from a re-analysis of the deposited data

Results flagged for a closer look

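Among the loops named above and the shares per library, 106 groups of 4 libraries were examined for 1 library far from the other 3; chance gives about 1 in 20 such groups, or 5.3, and 8 were found. The libraries concerned, by normalized count, were 6 h replicate 2 for loop30857 (32.7, others 25.3 to 25.5), 6 h replicate 4 for loop31184 (139.0, others 113.0 to 115.0), 6 h replicate 3 for loop30901 (19.8, others 27.5 to 29.0) and 6 h replicate 1 for loop30627 at VAV1 (89.2, others 100). At list genes they were 0 h replicate 2 for loop30687 at EPOR (103.0, others 124.0 to 127.0) and for loop30704 at LYL1 and IER2 (75, others 119.0 to 122.0), and 6 h replicate 4 for loop30943 at NFKBIB (67.6, others 46.7 to 49.5). The ratio of cluster to rest contacts was highest in 6 h replicate 2, at 2.03% against 1.88% to 1.90% in the others.

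Chromosome 19 held 7 loops that rose by 6 h and fell from 6 h to 72 h, each past the threshold in both comparisons, which share the 6 h libraries (edgeR), so that opposite signs are favoured. They are 1.08% of the tested loops of the chromosome, and over all 24132 tested loops 146 did the same (0.605%); the difference was not tested. The log2 fold changes to 6 h and from 6 h to 72 h were 0.75 and -0.56 for loop31182 in cluster 4 and 0.75 and -0.74 for loop30801 at the border of cluster 1. They were 1.07 and -0.63 for loop30976 over the CYP2 genes, 0.92 and -1.14 for loop30897 at WTIP, and 0.69 and -0.90 for loop30555 at 2.0 to 2.4 Mb. Loop31031, with an end of NANOS2, gave 0.57 and -0.65, and loop31171, beside cluster 4, gave 0.60 and -0.39. Of these 7 loops, loop31182 kept both calls on leaving out each library, but lost both in replicates 1 and 2 alone.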

How the results depend on the processing

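The 256 loops changed at 72 h came to 165 with DESeq2, 149 in replicates 1 and 2 alone, 138 in replicates 3 and 4 alone, and 216 to 275 on leaving out each library. The 62 changed at 6 h came to 28 with DESeq2 (no adjusted p for 111 loops), 23 and 13 in these pairs of replicates, 35 with the length correction, and 32 to 70 on leaving out each library. The 140 changed from 6 h to 72 h came to 55, 67 and 53 in the same order, and 106 to 144. The 7 changed cluster loops came to 2 with DESeq2, 4 and 2 in the pairs, 11 with boundary loops added, and 4 to 7 on leaving out each library (4 without 0 h replicate 2 or 72 h replicate 1).

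The median log2 fold change of chromosome 19 at 72 h was -0.28 with no filter on low counts, -0.18 with the length correction, -0.16 with total count scaling and -0.26 to -0.21 on leaving out each library. That of the cluster loops was -0.17 with the length correction and -0.21 with boundary loops added. On leaving out each library it ranged from -0.156 to 0.0136, the latter without 72 h replicate 2. The difference in the ratio of cluster to rest contacts between 72 h and 0 h was 0.03 percentage points and turned to -0.0195 without 0 h replicate 1 (range -0.0195 to 0.0677). The cause of these shifts was not tested.

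With the replicate number as a block 276 loops changed at 72 h, 81 at 6 h and 166 from 6 h to 72 h. Of the cluster loops 8 changed at 72 h. Deviations of same-numbered libraries correlated by 0.01 to 0.12. Libraries of different numbers were not compared in this way, so whether the numbers pair the libraries was not settled. Of 56 named calls 38 held on leaving out each library and 16 under every alternative that gave a value, and 0 reversed. The other 40 were lost under at least 1 alternative, and not every such loss is given above. The clusters' low counts limit what single loops can show.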
